A study of Mus musculus with 18 samples.

Results

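The actin-based contractile genes that mark a myofibroblast, and the transcription factor pair that drives them, were followed in sorted cardiac fibroblasts of the neonatal mouse. The 10 genes were chosen by name: the actins Acta2 and Actg2, the actin-binding proteins Tagln, Cnn1 and Cnn2, the tropomyosins Tpm1 and Tpm2, the regulatory myosin light chain Myl9, and the regulators Srf and Mrtfa. They are 10 of the 55453 gene symbols in the count table, and 10 of 10 passed the filter on low counts, which left 16170 genes for testing.

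A resting fibroblast that is activated by injury, tension or TGF-beta can become a myofibroblast, which builds actin stress fibers and pulls on the matrix. Many genes of this apparatus are controlled by serum response factor (SRF), which binds a DNA element called the CArG box. Its cofactor MRTF-A, the product of Mrtfa, is held in the cytoplasm by monomeric actin and enters the nucleus when actin assembles into filaments, so that much of its control lies in its location and not in its mRNA level. The same genes are abundant in vascular smooth muscle and pericytes, and some, Tpm1 among them, in heart muscle.

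All 18 libraries came from C57BL/6J pups heterozygous for Tcf21-MerCreMer and for Rosa-mTmG, which were given tamoxifen at P1. The Cre is expressed from Tcf21, a gene of resident cardiac fibroblasts, and cells that recombined carry membrane GFP while others carry tdTomato. There were 6 groups of 3 libraries: un-manipulated pups at P2 or P10 (baseline), sham-operated pups, and pups whose apex was resected. Operations were on P2 or P10 and hearts were taken 3 days afterwards, at P5 or P13. The ventricles were cut to their apical portion and GFP+ cells were isolated by flow cytometry after an enzyme digestion that was longer for the older hearts, so that age and digestion time cannot be told apart. Neither the labels nor the methods give the sex of the pups or how many went into a library, and p-values here measure only the spread between these libraries.

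Each library held between 10462737 and 22980554 counted reads. Levels are given as CPM, the reads of a gene scaled to a common library size with the TMM factor, which removes differences in composition. The fibroblast genes that should mark the sort were present in every library: Tcf21 had group means between 250.8 and 331 CPM and 9 of 9 fibroblast markers were above 0 in all libraries. Messages of other cell types were present too. The 12 cardiomyocyte markers summed to a group mean of 1085 CPM at P2 baseline and 382 CPM at P10 resected, and the 12 mural cell markers (pericytes and smooth muscle) to 794 CPM at P2 baseline and 1831 CPM at P10 baseline. In bulk samples, fewer cells of a type and less RNA per cell cannot be told apart.

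The members differed widely in level. Per kilobase of exon, Acta2 (chr19:34241090-34255590, minus strand, GRCm38), smooth muscle alpha-actin, was highest with a mean of 315 CPM over the 18 libraries, followed by Myl9 with 241 CPM and Cnn2 (calponin 2, chr10:79988584-79996062, plus strand) with 125 CPM. The tropomyosins Tpm1 and Tpm2, which lie along the actin filament, followed at 78.1 and 77.0 CPM per kilobase. Actg2 (chr6:83512905-83536265, minus strand), the gamma-actin of enteric smooth muscle, reached 13.96 CPM per kilobase, against 10.5 for Srf and 4.99 for Mrtfa. Cnn1 (calponin 1), a marker of differentiated smooth muscle, was the lowest at 2.68 CPM per kilobase, with 23 to 376 reads per library. Ranges over the libraries of neighbours in this order overlapped, Acta2 against Myl9 included, except for Srf and Mrtfa.

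**Figure D1:**
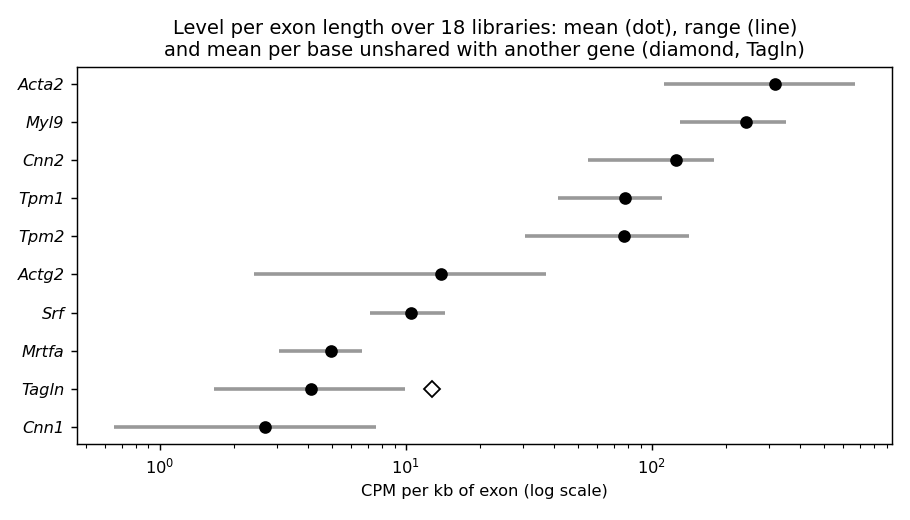
Level of each gene per kilobase of exon, in CPM on a log scale, over 18 libraries. Dots are means, lines run from the lowest to the highest library, and the diamond is the mean of Tagln per kilobase of exon that no other gene shares. Acta2 (315 CPM per kilobase) and Myl9 (241) lead, and Cnn1 (2.68) is last.

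Tagln (chr9:45929619-45936058, minus strand) encodes transgelin, also called SM22-alpha, and is usually among the strongest genes of this set, yet it had only 40 to 358 reads per library and 4.12 CPM per kilobase. In the annotation 67.9% of its exon bases are also covered by genes on the other strand, 62.4% by the antisense gene Gm48529 and 5.43% by Pcsk7. Reads were counted without regard to strand, and by its default the counter leaves out a read that overlaps more than 1 gene. Over the bases that Tagln shares with no other gene the same counts come to 12.8 CPM per kilobase, still below Actg2 (13.96) and Acta2 (315). Gm48529 itself had 0 to 36 reads per library. The level of Tagln is a level of the reads that could be assigned, and only its differences between libraries are used below. The cause of its low level was not tested. Mrtfa shares 0.164% of its exon bases with Sgsm3. The other members share none with another gene, and no stretch of 75 bases, the read length, in a transcript of any member but Tagln occurs in the transcripts of another gene.

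RefSeq promoter windows, from 250 bases before to 50 after the start of transcription, were at hand for 8 of the 10 genes (9 windows), with no entry for Actg2 or Tagln. The CArG box is CC, then 6 bases of A or T, then GG, and reads the same on both strands. It was found without mismatch in 3 of these 9 windows, those of Cnn2, Myl9 and Srf, against 1.63% of all 32851 windows. With up to 1 mismatch it was found in 6 of 9, which added Acta2, Tpm1 and Mrtfa, against 21.1% of all windows. The sequences of 3 genes are shown because their boxes differ in kind: a pair of near matches (Acta2), 1 exact box (Cnn2), and a row of them in the gene of the factor itself (Srf). All are from GRCm38.p6, written 5′ to 3′ on the strand of the gene, with matches of up to 1 mismatch in capitals.
Acta2, chr19:34255438-34255467, minus strand, box beginning 84 bases before the RefSeq start: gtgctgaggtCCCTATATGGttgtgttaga
Acta2, chr19:34255388-34255417, minus strand, box beginning 34 bases before the RefSeq start: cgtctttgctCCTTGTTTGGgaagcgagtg
Cnn2, chr10:79988450-79988583, plus strand: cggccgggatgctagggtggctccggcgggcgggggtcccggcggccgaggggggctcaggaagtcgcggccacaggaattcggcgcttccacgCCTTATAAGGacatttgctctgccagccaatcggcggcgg
Srf, chr17:46556176-46556312, minus strand: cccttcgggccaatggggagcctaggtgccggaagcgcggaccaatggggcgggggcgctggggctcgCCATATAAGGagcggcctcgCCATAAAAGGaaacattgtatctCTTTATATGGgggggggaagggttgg
In the GENCODE annotation the start of Acta2 lies further upstream, so that both of the stretches shown for it fall in the first exon there. A match is a run of letters and not a measured binding site, and a window without one says nothing about SRF at that gene.

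The first question was whether resection of the apex changed these genes in the fibroblasts 3 days later. At P2 both actins were higher after resection at an unadjusted p under 0.05, and no other member was. Acta2 stood at 518, 815 and 676 CPM in the P2 sham libraries and at 615, 1304 and 1476 CPM after resection. Actg2 stood at 10.2, 17.3 and 20.4 CPM after sham surgery and at 14.8, 48.3 and 58.1 CPM after resection. In both genes replicates 2 and 3 of the resected group lay above every sham library and replicate 1 lay among them, so the groups overlapped.

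The log2 fold change at P2 was 0.76 (SE 0.36) for Acta2 and 1.34 (SE 0.54) for Actg2, with unadjusted p = 0.0482 and 0.0238 in edgeR's quasi-likelihood test. After Benjamini-Hochberg adjustment over all genes the smallest p of a member was 1. None of the 10 members passed an adjusted p of 0.05 in edgeR or in DESeq2, where the background was 0% of genes in edgeR and 0.2% in DESeq2. At an unadjusted p under 0.05, 2 of 10 were higher after resection, against 3.38% of all genes (0 of 10 without sham replicate 1, resected replicate 2 or resected replicate 3, and 1 with the compared groups fitted alone), and 0 of 10 had groups that did not overlap with the resected group higher, against 5.62%. Without replicate 3 of the resected group the values were 0.52 for Acta2 and 0.99 for Actg2, and without replicate 1 they were 1.06 and 1.74.

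Tagln, at 6.83, 11.7 and 10.6 CPM after sham surgery and 7.86, 13.5 and 19.7 CPM after resection at P2, and Cnn1, at 3.30, 2.12 and 11.4 CPM against 6.10, 12.1 and 20.7 CPM, had log2 differences of 0.50 (SE 0.44) and 1.21 (SE 0.79). The groups overlapped in both genes. Without replicate 3 of the resected group the differences were 0.15 for Tagln and 0.70 for Cnn1, without replicate 1 of that group Tagln had 0.78, and without replicate 3 of the sham group Cnn1 had 2.26. Tpm2 differed by 0.35 (SE 0.34) and Myl9 by 0.29 (SE 0.35). With 1 library left out at a time these ran from 0.12 to 0.60 and from 0.03 to 0.51. Cnn2, Tpm1, Srf and Mrtfa differed by 0.10, -0.07, -0.03 and 0.23, each by less than its standard error of 0.26 to 0.32. In all, 8 of 10 members had a positive log2 difference, with a median of 0.32 against 0.00 over all genes tested. The median was 0.13 without resected replicate 3 and 0.55 without resected replicate 1.

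At P10 the gene that stood out was Tagln. Its sham libraries held 3.30, 4.27 and 4.86 CPM and its resected libraries 12.1, 9.66 and 5.90 CPM, so that every resected library lay above every sham library. The log2 fold change was 1.15 (SE 0.45, unadjusted p = 0.0194, adjusted p = 1 in edgeR). Left out in turn, the 6 libraries gave 0.91 to 1.39. This was 1 of 10 members at an unadjusted p under 0.05 and higher, against 3.43% of genes (0 of 10 without sham replicate 1 or resected replicate 1, and 0 without the filter on low counts), and 1 of 10 with the resected group wholly above the sham group, against 5.63%. No member passed the adjusted threshold in edgeR (background 0%) or in DESeq2 (background 0.213%). The low read number of Tagln (66, 66 and 103 reads after sham surgery) and its shared exons limit how firmly this can be stated.

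The actins did not repeat their P2 values at P10. Acta2 measured 247, 531 and 552 CPM in the P10 sham libraries and 673, 656 and 383 CPM after resection, a log2 difference of 0.36 (SE 0.35) that was 0.07 without sham replicate 1. Actg2 measured 3.75, 11.96 and 18.8 CPM after sham surgery and 18.0, 18.0 and 6.76 CPM after resection, a log2 difference of 0.31 (SE 0.54) that became -0.11 without sham replicate 1 and 0.87 without sham replicate 3. Each of the other 7 members differed by less than its standard error, between -0.07 for Myl9 and 0.33 for Tpm2. The median over the 10 members was 0.23, against 0.02 over all genes, -0.06 without sham replicate 1 and -0.03 without resected replicate 1.

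Over both ages together, Tagln (log2 fold change 0.83, SE 0.31), Actg2 (0.82, SE 0.38) and Acta2 (0.56, SE 0.25) were higher after resection at an unadjusted p under 0.05, which is 3 of 10 against 4.55% of all genes. The count was 0 without P2 resected replicate 3 or P10 resected replicate 1, and 1 (Tagln) with the compared groups fitted alone. The smallest adjusted p of a member in edgeR was 0.74, and 0 of 10 were called in edgeR (background 0%) or in DESeq2 (background 0.551%). The difference between the resection effects at P10 and at P2 was -0.39 (SE 0.50) for Acta2, -1.03 (SE 0.76) for Actg2 and 0.65 (SE 0.62) for Tagln on the log2 scale. No member passed this test of the difference in edgeR (background 0%) or DESeq2 (background 0.114%), and 0 of 10 did at an unadjusted p under 0.05 (background 2.88%). Left out in turn, the 12 libraries gave -0.69 to -0.15 for Acta2, -1.45 to -0.48 for Actg2 and 0.37 to 1.01 for Tagln. Without P10 sham replicate 1 Actg2 had an unadjusted p under 0.05. For Actg2 the 95% interval of the difference ran from -2.68 to 0.62, so these data do not show whether the ages responded alike.

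**Figure D2:**
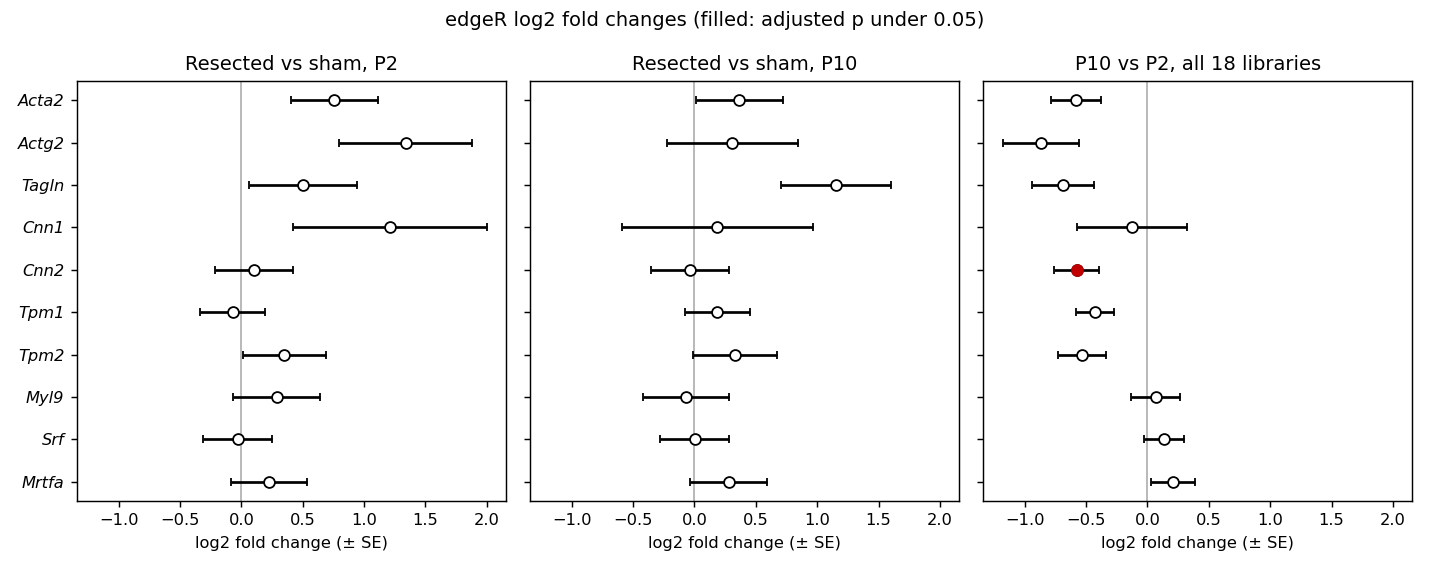
Log2 fold changes from edgeR with their standard errors for resection against sham at P2, at P10, and for P10 against P2 over all 18 libraries. The filled point is the single call at an adjusted p under 0.05, Cnn2 at -0.58 in the age comparison. There 6.39% of all genes were called lower. At P2 the highest values are those of Actg2 (1.34), Cnn1 (1.21, SE 0.79) and Acta2 (0.76), and at P10 that of Tagln (1.15).

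None of the cell type markers passed the adjusted threshold in these comparisons, but their levels varied between libraries and groups. At P2 the cardiomyocyte marker sum ran from 825 to 1239 CPM after sham surgery and from 266 to 747 CPM after resection, and 0 of 12 markers were called. The mural cell sum ran from 663 to 1507 CPM and from 882 to 1534 CPM, with 0 of 12 called. At P10 the cardiomyocyte sum ran from 137 to 693 CPM after sham surgery and from 185 to 600 CPM after resection, and the mural cell sum from 1165 to 1553 CPM and from 1142 to 1643 CPM. Macrophage markers had positive log2 differences in 9 of 9 at each age, with medians of 0.81 at P2 and 1.22 at P10, and sums of 5.29 to 154 CPM after sham surgery and 60.5 to 384 CPM after resection at P2. At P10 those sums were 81.4 to 302 CPM and 60.8 to 984 CPM. Endothelial markers were higher in 8 of 9 and epicardial markers in 7 of 7 tested at P10, again with 0 called. Of the 8 epicardial markers 7 were at 0 in 5 or more of the 18 libraries. Of the 9 macrophage markers 7 were at 0 in 1 or more, which limits what these signs show. The part of these cell types in the differences of the actins and Tagln was not tested. Of the 14 genes of the activated fibroblast and TGF-beta list, 13 had positive differences at P2, 6 of them at an unadjusted p under 0.05 (3.38% of all genes), and 13 at P10, 3 of them at that threshold (3.43% of all genes), with 0 called at either age.

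The second question was how the genes differed between the regenerative window (P2 and P5) and the later age (P10 and P13). With 9 libraries on each side, Cnn2, a calponin of non-muscle cells that stabilizes actin filaments, was lower at the later age. It ran from 293 CPM to 442 CPM, with a median of 377, in the P2 series and from 136 CPM to 341 CPM, with a median of 251, in the P10 series. The log2 fold change was -0.58 (SE 0.18, adjusted p = 0.0456 in edgeR). The ranges overlapped, and 6 of the 9 later libraries lay below every earlier one.

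Cnn2 was the 1 member of 10 called in this comparison, where 13.5% of all genes were called, 6.39% lower and 7.11% higher. Leaving out 1 library at a time ended this call in 13 of 18 cases, with log2 fold changes between -0.69 and -0.48, and its unadjusted p stayed under 0.05 in 18 of 18. With DESeq2, which called 19.3% of all genes and 9.09% lower, 5 members were called lower: Acta2, Actg2, Tagln, Cnn2 and Tpm1.

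Another 5 members were lower at an unadjusted p under 0.05 only, which made 6 of 10 with Cnn2 against 14.7% of all genes. Actg2 had a median of 27.6 CPM in the P2 series (10.2 to 58.1) and 18.0 CPM in the P10 series (3.75 to 22.2), a log2 fold change of -0.87 (SE 0.31, adjusted p = 0.0728). Acta2 had a median of 728 CPM (518 to 1476) and 552 CPM (247 to 772), a log2 fold change of -0.58 (SE 0.20, adjusted p = 0.0690). Tagln had -0.69 (SE 0.26, adjusted p = 0.0853), Tpm2 -0.54 (SE 0.20, adjusted p = 0.0815) and Tpm1 -0.43 (SE 0.15, adjusted p = 0.0723). All of these ranges overlapped between the ages.

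Of the other members, Myl9, Srf and Mrtfa had small positive log2 differences and Cnn1 a small negative one, and none had an unadjusted p under 0.05. Myl9, the light chain whose phosphorylation starts contraction, had 274 CPM at the median of the P2 series and 298 CPM in the P10 series (log2 fold change 0.07, SE 0.20). Srf measured 31.2 and 30.9 CPM (0.13, SE 0.16), Mrtfa 28.6 and 32.2 CPM (0.21, SE 0.18), and Cnn1 6.10 and 5.62 CPM (-0.13, SE 0.45). Their sign was not stable for Myl9 and Cnn1, which changed it when single libraries were left out. The median of the 10 members was -0.48 on the log2 scale, against -0.06 over all genes.

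**Figure D3:**
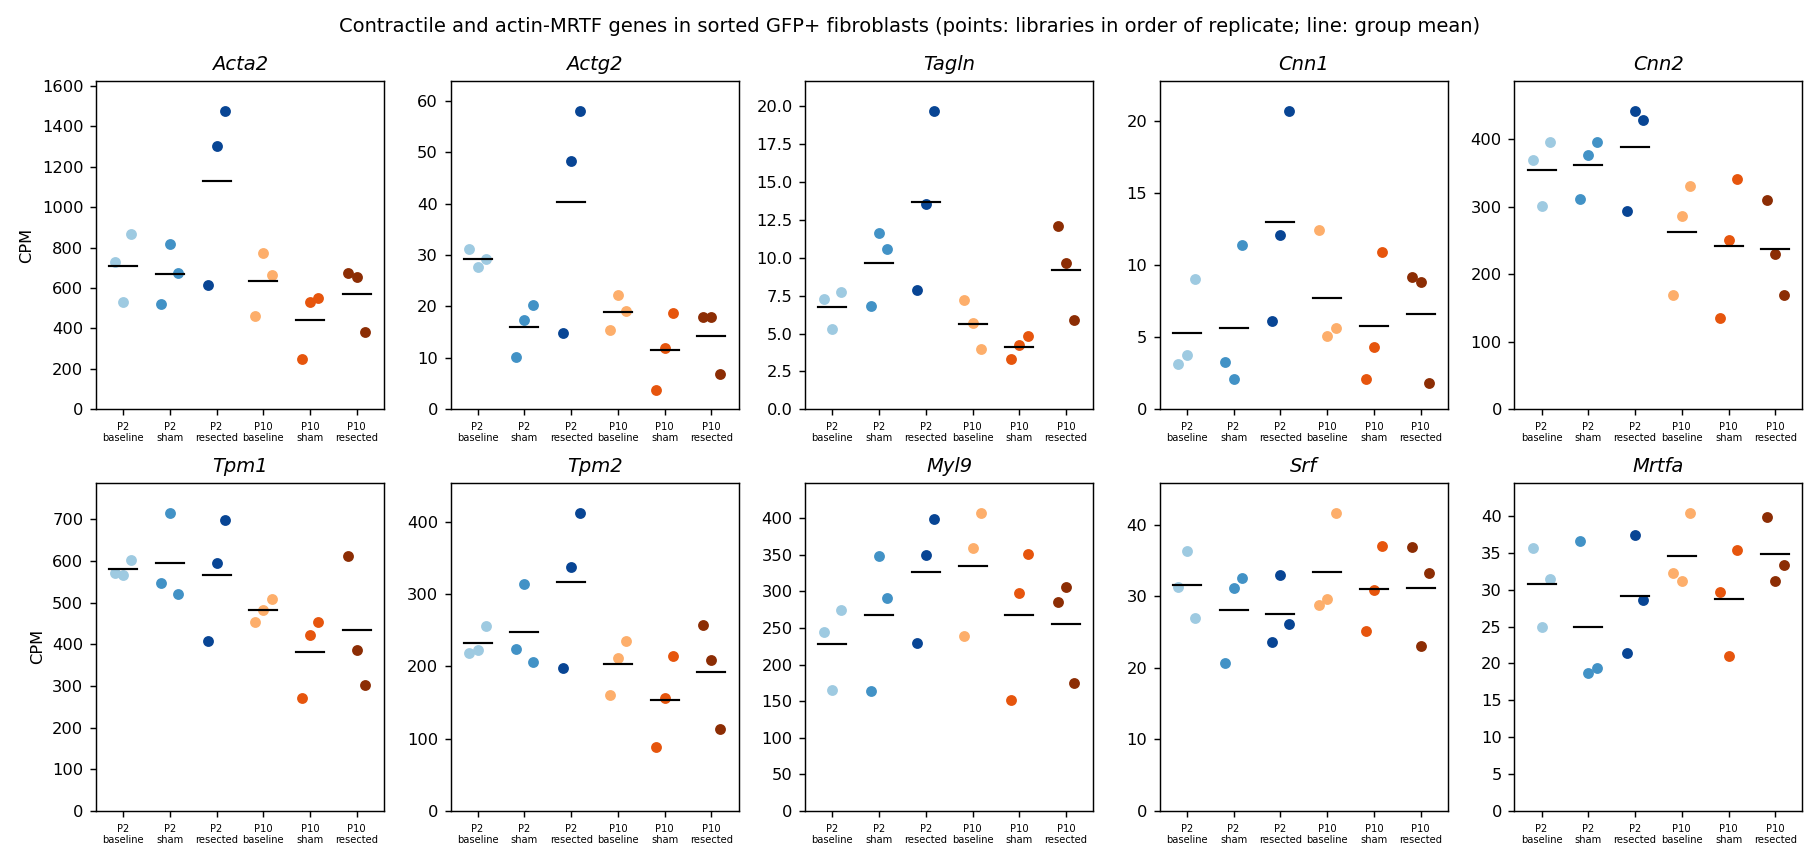
CPM of the 10 genes in each of the 18 libraries, by group, on axes that start at 0. Points are libraries and black lines are group means. In Cnn2 the P10 groups have means between 237 and 262 CPM and the P2 groups between 355 and 388 CPM, and in Acta2 and Actg2 replicate 1 of the P2 resected group lies far below its partners.

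The age difference was then read within each treatment. At baseline, where no pup had surgery, Actg2 measured 31.2, 27.6 and 29.2 CPM at P2 and 15.5, 22.2 and 19.04 CPM at P10, and Tpm1 572, 566 and 602 CPM against 454, 483 and 509 CPM. All P10 libraries lay below all P2 libraries in these 2 genes, against 12.1% of genes with that pattern. Acta2 showed no such gap, with 728, 533 and 865 CPM against 462, 772 and 664 CPM. No member was called in edgeR (background 4.38%) or DESeq2 (background 10.4%), and 0 of 10 had an unadjusted p under 0.05 (background 18.7%).

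After sham surgery the P10 libraries lay wholly below the P2 libraries in Tagln and Tpm1, 2 of 10 against 7.61% of genes. Tpm1 measured 546, 716 and 520 CPM at P2 and 270, 422 and 454 CPM at P10, a log2 fold change of -0.64 (SE 0.27). For Tagln it was -1.22 (SE 0.45). Both had an unadjusted p under 0.05, 2 of 10 against 8.74% of genes lower. The count was 0 without P10 sham replicate 1 and with the compared groups fitted alone. No member was called in edgeR (background 3.18%), and DESeq2 called 1, Tagln, which is 1 of 10 where DESeq2 called 8.01% of all genes. After resection Acta2 (-0.99, SE 0.36), Actg2 (-1.50, SE 0.54) and Cnn2 (-0.71, SE 0.32) were lower at an unadjusted p under 0.05, 3 of 10 against 4.18% of genes. The count was 0 without P2 resected replicate 3 or P10 resected replicate 3. None was called in edgeR (background 0.86%) or DESeq2 (background 4.09%), and 0 of 10 were wholly separate and lower (background 12.7%). Without replicate 3 of the P2 resected group the values were -0.75 for Acta2 and -1.15 for Actg2. These 3 comparisons share no library with each other, but each shares its libraries with the comparison over all 18.

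Sham libraries were also set against baseline libraries of the same series, a difference that holds both the surgery and 3 days of growth. At P2 Actg2 was wholly lower after sham surgery (10.2, 17.3 and 20.4 CPM against 31.2, 27.6 and 29.2 CPM; log2 difference -0.88, SE 0.54), 1 of 10 against 5.47% of genes. At P10 Tpm1 was (270, 422 and 454 CPM against 454, 483 and 509 CPM, where the closest libraries were 453.6 and 453.7 CPM; -0.34, SE 0.26), 1 of 10 against 4.69%. At P10 10 of 10 members had negative log2 differences, with a median of -0.37 against -0.02 over all genes, and -0.13 without sham replicate 1. The difference of Tpm1 at P10 was -0.14 without that library. In edgeR 0 of 10 were called at P2 (background 0%) and at P10 (background 0.00618%), and DESeq2 called 0 at both (background 1.09% and 0.963%). At an unadjusted p under 0.05 there were 0 of 10 at each age, against 7.6% and 7.4% of genes.

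In the order of group means, P2 resected was highest for Acta2, Actg2, Tagln, Cnn1, Cnn2 and Tpm2. The ratio of the highest to the lowest group mean was 3.51 for Actg2, 3.31 for Tagln and 2.55 for Acta2, and 1.40 for Mrtfa and 1.21 for Srf. Neighbouring groups in these orders overlapped in all genes, except that the P2 baseline and P10 baseline libraries of Actg2 did not. The regulators had the flattest profiles of the 10: Srf ran from a mean of 27.6 CPM (P2 resected) to 33.4 CPM (P10 baseline) and Mrtfa from 24.9 CPM (P2 sham) to 34.8 CPM (P10 resected).

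The wider pathway was described by lists of other genes, in the comparison of P10 with P2 over all 18 libraries. There 7.11% of all genes were called higher and 6.39% lower. The lists were not tested as sets. Of 12 further smooth muscle contractile genes, 3 were called higher at the later age, Myh11, Lmod1 and Mustn1, and 1 lower, Pdlim3. Myh11, smooth muscle myosin heavy chain, had group means of 4.60 CPM at P2 baseline and 55.3 CPM at P10 baseline (log2 fold change over all libraries 2.42, SE 0.46, adjusted p = 0.00154 in edgeR). Of 18 broadly expressed paralogs and partners, 4 were called lower and none higher: Actc1 (-0.98), a cardiac actin, Cnn3 (-0.48), Tpm4 (-0.52) and Actn1 (-0.82), an actin cross-linker. Actb, cytoplasmic beta-actin, was not called, with 3575 to 5071 CPM as group means.

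Of 18 adhesion and cytoskeletal targets of MRTF and SRF, 4 were called lower with age, Vcl (-0.63), Csrp1 (-1.14), Fhl1 (-0.42) and Ankrd1 (-2.51), and 1 higher, Ccn2 (0.65). Of all genes, 6.39% were called lower and 7.11% higher. Of 10 immediate early genes that SRF controls through its other cofactors, 3 were called higher, Fos (1.08), Junb (1.37) and Egr1 (0.69), and none lower. Of 9 SRF cofactors and regulators, Phactr1, an actin-binding partner of phosphatase 1, was called higher (0.87) and Abra, which was at or below 1.86 CPM in every library, lower. Fhl2, a LIM protein that binds SRF, was the highest of this list with a mean of 164 CPM, and myocardin (Myocd), the cofactor of smooth and cardiac muscle, was among the lowest with group means of 1.18 to 2.20 CPM. Neither was called.

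Of 14 activated fibroblast genes, 4 were called higher (Col3a1, Fap, Tgfbi and Timp1), against 7.11% of all genes. Another 2 were called lower (Postn, -1.24, and Tnc, -1.46), against 6.39% of all genes.

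**Figure D4:**
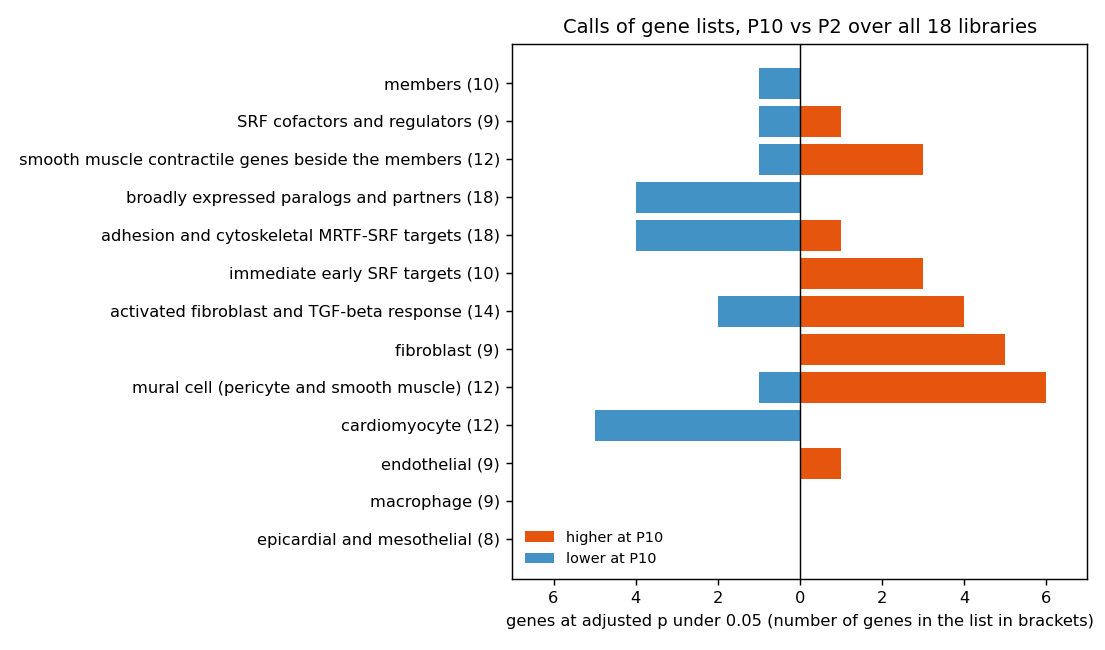
Number of genes of each list shown that were called higher (right) or lower (left) at P10 and P13 against P2 and P5 in edgeR, with the size of each list in brackets. The 10 members have 1 call, lower, the immediate early genes 3 calls, higher, and the cardiomyocyte markers 5 calls, lower. Myh11 stands in both the smooth muscle and the mural cell list. Of all genes, 7.11% were called higher and 6.39% lower.

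Markers of other cell types moved with age in both directions, where 7.11% of all genes were called higher and 6.39% lower. All 12 cardiomyocyte markers had negative log2 differences, 5 of them called, with a summed level of 266 to 1239 CPM in the P2 series and 137 to 693 CPM in the P10 series, which overlap. Within the P2 series it was 266 to 747 CPM after resection and 825 CPM or more in the other libraries. Of these markers 10 of 12 were above 0 in every library, while Ryr2 was at 0 in 2 of 18 and Myh7 in 8 of 18. Of 12 mural cell markers 6 were called higher and 1 lower, and the sum ran from 606 to 1534 CPM in the P2 series and from 1142 to 2250 CPM in the P10 series. Of 12, 11 were above 0 in every library and Myh11 was at 0 in 1. Of 9 fibroblast markers 5 were called higher (Dcn, Lum, Gsn, Col15a1 and Mfap5) and none lower, and their sum ran from 11973 to 21043 CPM in the P2 series and from 25401 to 47091 CPM in the P10 series, with no overlap. The part of these shifts in the lower level of Cnn2, and in the differences of the other members that did not pass the adjusted threshold, was not tested.

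Within groups most of the contractile genes moved together from library to library, with Cnn1 following Acta2 least closely. In each library the deviation of log2 CPM from its group mean was taken, so that differences between groups play no part. All 8 contractile genes were below their group mean in P2 baseline replicate 2, P2 sham replicate 1, P2 resected replicate 1, P10 sham replicate 1 and P10 resected replicate 3. They were all above it in P2 resected replicates 2 and 3, P10 sham replicate 3 and P10 resected replicate 1. The median deviation was -0.65 in P2 resected replicate 1 and -0.73 in P10 sham replicate 1 on the log2 scale, and 0.53 in P10 sham replicate 3.

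Over the 18 libraries, the deviation of Acta2 went with that of Myl9 (Pearson's r = 0.932, permutation p = 0.000193; Spearman's coefficient 0.794, permutation p = 0.00139) and with that of Actg2 (r = 0.919, p = 0.000707; Spearman's coefficient 0.808, p = 0.00276 by the same permutation test). Permutations were exact, two-sided and within groups, with 46656 arrangements, and after adjustment over the 15 relations computed with Acta2 the p for r was 0.00264 for both. Without the 2 libraries farthest from the median, P2 resected replicate 1 and P10 sham replicate 1, r was 0.924 and 0.848. For Tpm2, Cnn2, Tpm1, Tagln and Cnn1 r was 0.897, 0.875, 0.825, 0.720 and 0.542, with a permutation p for Cnn1 of 0.0588 (adjusted 0.110). Spearman's coefficient for Tagln was 0.575 (permutation p = 0.0368, adjusted 0.092). Its r was 0.956 within the P2 series, 0.474 within the P10 series, and 0.622 without the 2 farthest libraries. Of all genes tested, 0.0186% had a higher r with Acta2 than Actg2 had, and 13.1% a higher r than Cnn1.

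The regulators had lower values. Srf had r = 0.328 (permutation p = 0.248) and Mrtfa r = 0.116 (permutation p = 0.705) with Acta2. Among the 28 pairs of the 8 contractile genes r ran from 0.462 to 0.938 with a median of 0.771. Among the 16 pairs of Srf or Mrtfa with those genes it ran from -0.0348 to 0.543 with a median of 0.218, and the ranges overlap. Srf was positive with 8 of 8 contractile genes, highest with Cnn2 (0.543), and the difference between the correlations was not tested. The highest pair was Tpm1 with Tpm2.

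The shared deviation was set beside the marker sums. The deviation of the summed cardiomyocyte markers went with that of Acta2 (r = 0.725, permutation p = 0.0246, adjusted 0.0527; Spearman's coefficient 0.546, permutation p = 0.0861, adjusted 0.144), within the P2 series (r = 0.792) and within the P10 series (r = 0.707). Without the 2 libraries named above r was 0.523. The lowest cardiomyocyte sums of their groups were in P2 resected replicate 1 (266 CPM), P10 sham replicate 1 (137 CPM) and P10 resected replicate 3 (185 CPM), which are 3 of the 5 libraries where all contractile genes were low. The other two, P2 baseline replicate 2 (1113 CPM) and P2 sham replicate 1 (902 CPM), had the middle sum of their groups. P2 baseline replicate 3, with 7 of 8 contractile genes above the group mean, had the lowest sum of its group (942 CPM). P10 sham replicate 3, where all were high, had 262 CPM, below replicate 2 of that group with 693 CPM. For the mural cell sum r was -0.072 (permutation p = 0.807), and for the endothelial, fibroblast, macrophage and epicardial sums it was -0.460, -0.334, 0.317 and 0.148, with an adjusted permutation p for r of 0.198 or above. Within the P2 series these 5 values were 0.104 (mural), -0.611, -0.119, -0.153 and 0.714, and within the P10 series -0.364, -0.281, -0.653, 0.805 and -0.134, so that the macrophage sum in the P10 series and the epicardial sum in the P2 series had values about as high as the cardiomyocyte sum. The epicardial sum is almost wholly 1 gene, Aldh1a2, with a mean of 1119 CPM, against 2.84 CPM or less for each other marker. The largest share of the macrophage sum is Lyz2, with a mean of 86.5 CPM, against 35.4 CPM or less for each other marker. The part of other cells in the shared deviation was not tested.

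**Figure D5:**
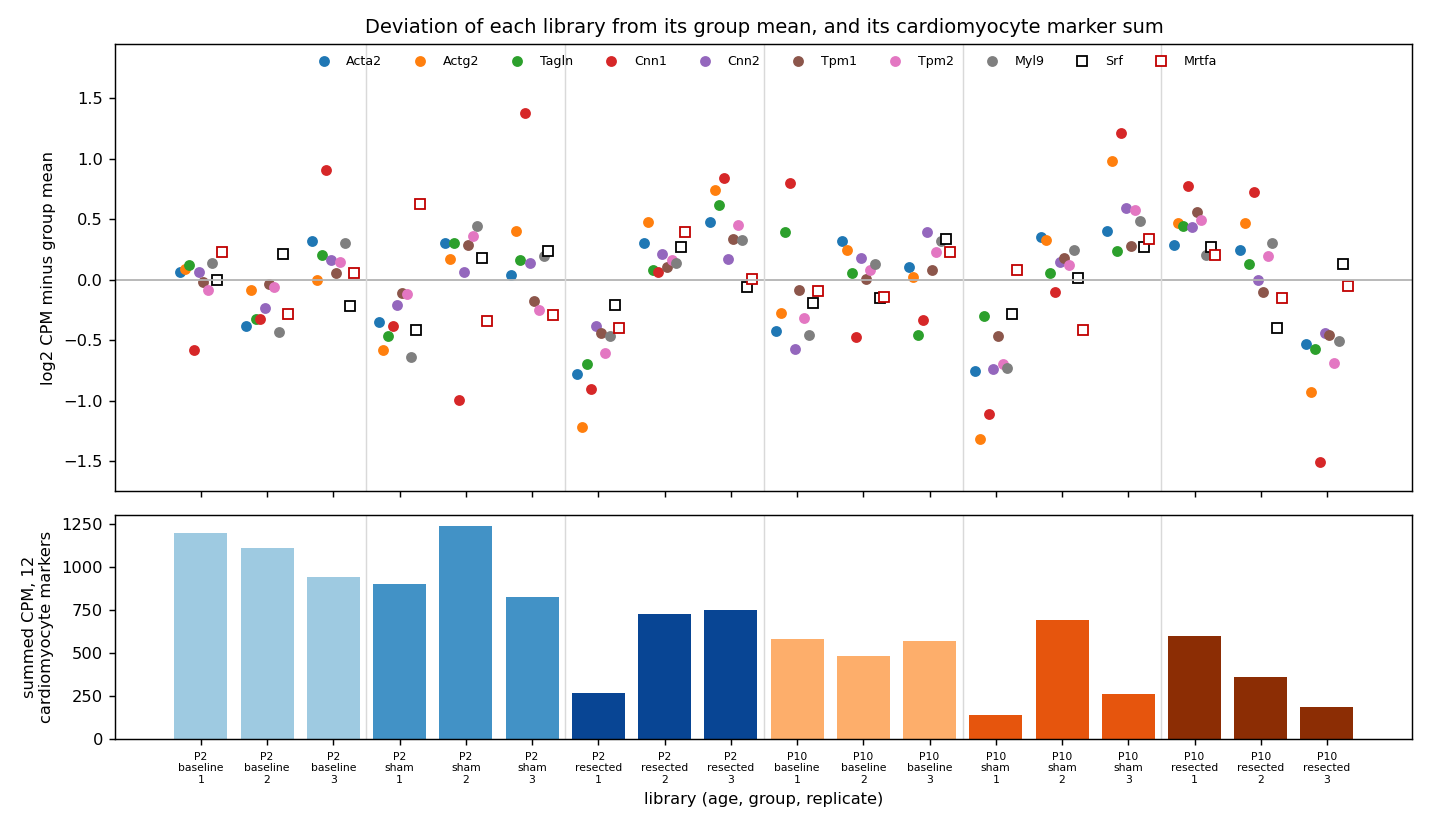
Above, the deviation of each gene's log2 CPM from its group mean in each library, with Srf and Mrtfa as open squares. Below, the summed CPM of 12 cardiomyocyte markers. The contractile genes lie together below 0 in 5 libraries. In P2 resected replicate 1, P10 sham replicate 1 and P10 resected replicate 3 the marker sums are 266, 137 and 185 CPM, the lowest of their groups, and in P2 baseline replicate 2 and P2 sham replicate 1 they are 1113 and 902 CPM, the middle of theirs.

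The genes most like each member over the 18 libraries, by Pearson's r of log2 CPM, are given as a description. For Acta2 they were Tpm2 (r = 0.929), Actg2 (0.916), Hist1h1c (0.899), Ddx39b (0.874) and Sdc1 (0.870). For Tpm1 they were Tpm2 (0.915), Tnnc1 (0.905), Myl2 (0.901), Ywhae (0.875) and Tnni3 (0.874), of which Tnnc1, Myl2 and Tnni3 encode sarcomere proteins of heart muscle and are on the cardiomyocyte list. Cnn2 was closest to Sae1 (0.934) and Cfl1 (0.926), the latter encoding the actin-severing protein cofilin. For Mrtfa the closest was Egr1 (0.782). All 18 libraries share the group structure, and these values also hold the differences between groups.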

How the data were processed

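Bulk RNA-seq libraries were made from 1 ng of total RNA with the SMARTer Ultra Low Input and NexteraXT kits. Per the methods, the authors trimmed single-end reads of 75 nt (fastp 0.20.0), mapped them to GRCm38.p6 (STAR 2.7.0f) and counted exons of GENCODE M22 symbols without strand (featureCounts, Subread 1.6.4). The deposited values are these raw counts. GENCODE M21 gave exon lengths and overlaps here.

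Counts were analysed in R 4.3.3 with edgeR 4.0.16: filterByExpr (minimum count 10, minimum total 15), TMM, and 1 quasi-likelihood fit of all 18 libraries with a mean per group, Benjamini-Hochberg adjusted p under 0.05. DESeq2 1.42.0, another scaling, no filter, the replicate block, the compared groups alone, and each library left out were alternatives. Intervals use 12 residual degrees of freedom. Replicates of a group differed beyond sampling noise. Groups came from the sample descriptions. Some list results are not reported here. The members and gene lists were chosen with earlier results of these data known. The text names all 10 members, genes of the other lists that were called in a described comparison or were highest or lowest in mean CPM (up to 4 per list), and the 5 genes closest to a member by Pearson's r of log2 CPM (prior count 2).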

Additional observations from a re-analysis of the deposited data

How the results depend on the processing

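Of 10 comparisons, 7 kept 0 members called under every alternative. For P10 against P2 over all libraries the count of 1 (Cnn2) became 5 with DESeq2 (9.09% of all genes lower). Without the filter on low counts it was 4 (4.57% lower). When single libraries were left out it was 0 to 5, with 5 without P2 resected replicate 1 (847 of 17060 genes lower). Without P10 sham replicate 3 it was 3 (880 of 17239 genes lower). It was 2 (Acta2 and Cnn2) with the replicate block (8.7% lower). P10 against P2 after sham surgery rose from 0 to 1 (Tagln) with DESeq2 (8.01% of all genes called), and after resection from 0 to 1 (Acta2) without the filter (1.82%). The cause was not tested. No other count of members called at the adjusted threshold changed with the replicate block. At an unadjusted p under 0.05, Tpm2 joined Tagln and Tpm1 with it in P10 against P2 after sham surgery. Deviations of same-numbered libraries of different groups correlated at -0.135 to 0.378 (median 0.0466, 45 pairs) and those of other pairs at -0.285 to 0.208 (median -0.0248, 90 pairs), and 10 of 18 libraries correlated best with one of their own number. This is a hint from the data and not from the design, and since some same-numbered pairs were negative the numbers were not taken as pairs. The 17 member differences with an unadjusted p under 0.05 kept their sign in all 271 refits. They were picked by that p in the same data, which left little room for a change of sign, so this is no support for them. Of the other 83, 50 kept their sign throughout. The number of all genes called moved too. For P10 against P2 over all libraries it was 2183 in edgeR, 3190 with DESeq2, 2759 without the filter and 2745 with the replicate block. Within treatments it was 709 (baseline), 515 (sham) and 139 (resected) in edgeR, 1671, 1281 and 506 with DESeq2, 1155, 911 and 526 without the filter, and 295, 125 and 332 with the compared groups alone. For resection against sham it was 0 at both ages in edgeR, 34 and 43 with DESeq2, and 24 and 76 without the filter. Depth limits Tagln and Cnn1 most, with as few as 40 and 23 reads in a library.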
